A study of Mus musculus with 9 samples.

Results

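The genes described here are 9 that encode proteins released by the liver into the blood, namely the stress hormones Fgf21 and Gdf15, the lipase inhibitors Angptl4 and Angptl8, the insulin-like growth factor (IGF) binding proteins Igfbp1, Igfbp2 and Igfbp4, and the fetuins Fetub and Ahsg. They were chosen by name, and earlier results of these data were known when the list was made. Their names stood on 12 of the 52151 entries of the gene table. Of these, 9 entries, 1 for each gene, held known transcripts, among 26345 named entries of that kind. The other 3 entries, for Ahsg, Fetub and Igfbp4, consisted of 1 assembled transcript each, never exceeded 2.40 FPKM and were left out.

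The study sequenced RNA from the livers of mice fed alcohol or a control diet. PF (pair-fed) mice received a control liquid diet with the same calories, AF (alcohol-fed) mice received an alcohol liquid diet, and the mice of the group called AF with MNA received the alcohol diet and MNA, an agent that the labels do not spell out, injected at 50 mg/kg. Feeding lasted 5 weeks in every group, the age label reads 8 weeks throughout, and each group has 3 libraries, which the text calls replicates 1 to 3. The strain label is C57BL/6 in PF and AF and counts up as C57BL/7, C57BL/8 and C57BL/9 in AF with MNA, and whether these consecutive numbers mean strains or arose when the labels were entered is not given in the sources used here. According to the methods, the mice were male and were fasted before the livers were taken, and the AF with MNA group is not described there. The labels name no engineered allele. In whole liver, fewer cells of a type and less RNA per cell cannot be told apart.

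The liver is an endocrine organ, and the proteins it releases, called hepatokines, act on fat, muscle, brain and the liver itself. FGF21 is induced by fasting, by shortage of amino acids and by alcohol, and signals through FGF receptors together with the co-receptor beta-Klotho (Klb), while GDF15 is released by stressed cells and lowers food intake through a receptor in the hindbrain. ANGPTL4 and ANGPTL8 hold back lipoprotein lipase, the enzyme that releases fatty acids from circulating triglyceride, the former mainly in the fasted state and the latter in the fed state. IGF binding proteins carry IGFs in blood and limit their access to receptors, and IGFBP1 is the liver's insulin-repressed and stress-responsive member. The fetuins are abundant plasma proteins of the cystatin superfamily.

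Levels are given in FPKM (sequenced fragments for each kilobase of transcript, scaled for library depth), a scale that corrects for transcript length, so that genes can be compared with each other on it. Each comparison was fitted on log2(FPKM + 1) with limma over all named genes whose mean reached 0.5 FPKM, and all 9 genes passed that filter in all 3 comparisons. A coefficient is the difference of group means on that scale, which understates the change of low genes, and the log2 ratio is that of the group mean FPKMs. A gene was called changed at the threshold of the methods, that is a log2 ratio above 1 or below -1 and a p under 0.05. The methods state it for long non-coding RNAs (lncRNAs) tested with Ballgown and do not mention adjustment. It was carried over here to all named genes and to limma's p before adjustment. Adjusted p-values (limma, Benjamini-Hochberg over all tested genes) stand beside it. An exact permutation test of 3 libraries against 3 could not give a p under 0.1. The comparisons share the PF or the AF libraries and are therefore not independent of each other.

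Of the 9 genes, 8 had a promoter in the RefSeq table for the mouse build GRCm38.p6, and Angptl4 did not. The 250 bases before the annotated start are printed for the 4 genes whose lowest and highest library lay more than 2 apart on log2(FPKM + 1), each read 5′ to 3′ on the strand of the gene. The motifs searched, on both strands, were TATAAA and also CCAAT, the forkhead motifs GTAAACA and CAAAACA, TGATGNAA (a composite ATF4 and C/EBP motif) and the partial direct repeats TGACCTNTG and AGGTCANAG of nuclear receptors. Capitals mark the matches, which are a description of the letters and not evidence of binding. The sequences are those of Igfbp1 (chr11:7197537-7197786, plus strand), Fgf21 (chr7:45615491-45615740, minus strand), Gdf15 (chr8:70632457-70632706, minus strand, the upstream of 2 annotated starts) and Angptl8 (chr9:21835260-21835509, plus strand):
Igfbp1: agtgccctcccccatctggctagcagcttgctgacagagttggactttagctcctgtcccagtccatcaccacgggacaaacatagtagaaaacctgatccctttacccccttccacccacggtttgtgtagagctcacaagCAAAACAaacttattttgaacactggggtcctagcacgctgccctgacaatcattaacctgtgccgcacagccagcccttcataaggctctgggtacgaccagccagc
Fgf21: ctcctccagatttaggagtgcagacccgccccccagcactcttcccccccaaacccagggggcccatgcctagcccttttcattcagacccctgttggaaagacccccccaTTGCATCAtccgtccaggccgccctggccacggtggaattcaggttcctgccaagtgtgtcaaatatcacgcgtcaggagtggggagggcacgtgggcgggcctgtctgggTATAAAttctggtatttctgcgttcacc
Gdf15: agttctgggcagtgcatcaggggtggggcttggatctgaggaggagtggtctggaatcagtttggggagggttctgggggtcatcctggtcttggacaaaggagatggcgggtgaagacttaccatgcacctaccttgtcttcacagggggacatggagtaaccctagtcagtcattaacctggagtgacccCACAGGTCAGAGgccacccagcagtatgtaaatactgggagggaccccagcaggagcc
Angptl8: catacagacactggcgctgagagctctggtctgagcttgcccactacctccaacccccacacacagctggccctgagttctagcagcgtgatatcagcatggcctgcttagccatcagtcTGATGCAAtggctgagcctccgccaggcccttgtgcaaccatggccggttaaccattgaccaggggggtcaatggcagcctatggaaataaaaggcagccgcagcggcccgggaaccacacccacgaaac

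Igfbp1 held CAAAACA at bases 108 to 102 before its start, a motif found in 5.56% of the 32851 promoters of the table. TGATGNAA, found in 3.45% of all promoters, was present in Fgf21, on the opposite strand at bases 139 to 132, and in Angptl8 at bases 130 to 123, and at no other member promoter in the table. Fgf21 also held TATAAA at bases 28 to 23 (12.4% of all promoters), as did Igfbp4 and Fetub. In Gdf15 TGACCTNTG on the opposite strand, at bases 58 to 50 (1.32% of all promoters), overlapped AGGTCANAG at bases 55 to 47 (1.75%). CCAAT, present in 33.8% of all promoters, occurred in Fetub and at the second start of Gdf15, and GTAAACA, present in 3.17%, occurred only at the second start of Fetub, which lies inside the annotated gene. No match was found in the promoters of Igfbp2 or Ahsg in the table, and the start that RefSeq gives for Ahsg lies inside the gene as annotated in GENCODE, so that the bases before the gene start printed here for Ahsg were not searched.

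All genes lie on the GRCm38 autosomes and are annotated as protein-coding, and no entry held transcripts of another gene. Ahsg (chr16:22891277-22899449) and Fetub (chr16:22918334-22939778) are neighbours on the plus strand, 18884 bases apart. Igfbp1 (chr11:7197782-7202546) and Igfbp3 face each other tail to tail with 3539 bases between them, and Igfbp2 (chr1:72824503-72852474) and Igfbp5 stand the same way 5457 bases apart. Igfbp4 lies at chr11:99041244-99054392, Fgf21 at chr7:45613886-45615490, Gdf15 at chr8:70629393-70632456, Angptl4 at chr17:33773750-33781830 and Angptl8 at chr9:21835510-21837347. Angptl8 overlaps Dock6 and Ahsg overlaps Gm30505, both on the opposite strand. The libraries were strand-specific, but whether strand was used in quantification is not given in the sources used here.

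The libraries looked like liver, with the summed level of 8 hepatocyte markers between 15830 and 22797 FPKM. In the PF libraries 1 FPKM stood for 6.16 to 6.82 reads per base, in AF for 6.19 to 7.24 and in AF with MNA for 5.84 to 8.30, and no read counts are given for genes. Transcripts inside introns summed to 9433 FPKM in AF replicate 3 and 8934 in AF with MNA replicate 1. In the other libraries that sum was 2477 to 4937 FPKM. AF replicate 2 stood apart for several of the 9 genes. It had the lowest hepatocyte sum and the highest sums for Kupffer cells (95.7 FPKM, 51.5 to 87.1 in the other libraries) and red blood cells (650 FPKM, 285 to 450 in the others). The hepatocyte sum was carried by Alb and Ttr, both lowest in that library. Apob (870.72 FPKM), Apoa1 (190.08 FPKM) and Serpina1a (1119.82 FPKM) were near the low end of the range of the others. Cps1 (1131.75 FPKM) was within the range, and Hnf4a (69.38 FPKM) and Tat (581.14 FPKM) were highest in that library. Cd5l (54.09 FPKM) was the largest part of the Kupffer cell sum, and Cd5l, Adgre1 (5.95 FPKM) and Timd4 (2.49 FPKM) were highest in that library. Csf1r (10.78 FPKM) and Marco (2.77 FPKM) were near the top of the range of the others. Clec4f (12.82 FPKM) and Vsig4 (6.79 FPKM) were within that range. Measured against the mean of the other AF libraries on FPKM + 1, 41 genes were at least 4-fold higher in AF replicate 2. The numbers were 17 for AF replicate 1 and 18 for AF replicate 3. Genes at least 4-fold below that mean were no more frequent in AF replicate 2 (51, against 64 and 59). Over all genes its mean root mean square distance to the other AF libraries, on log2(FPKM + 1), was 0.590, close to the 0.581 of AF replicate 3. Endothelial markers summed to 30.2 to 38.0 FPKM in PF, 37.2 to 51.9 in AF and 45.5 to 51.8 in AF with MNA, and stellate cell markers to 27.7 to 41.8 over all libraries. Marker sums for cholangiocytes (3.29 to 9.13 FPKM), exocrine pancreas (2.25 to 7.18), neutrophils (0.17 to 2.19), adipocytes (0.44 to 1.68) and lymphocytes (0.42 to 1.38) were low, with Cftr, Cpa1, Amy2b, Ly6g, Ngp, Adipoq, Plin1 and Ms4a1 under 0.1 FPKM in every library. The part of these differences in the results below was not tested.

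Ahsg ranked 2 among the 26345 named entries by its mean over the 9 libraries, 4071 FPKM, and made up between 81.0% and 87.1% of the summed FPKM of the 9 genes in each library. Igfbp4 (385 FPKM, rank 79), Fetub (225 FPKM, rank 124) and Igfbp2 (80.2 FPKM, rank 285) followed, and their ranges did not overlap with one another in any group. Igfbp1 (33.4 FPKM) and Angptl4 (27.8 FPKM) came next at ranks 622 and 716. In PF and in AF with MNA every Igfbp1 library lay below every Angptl4 library, and in AF their ranges overlapped. Angptl8 (5.46 FPKM) ranked 3319, Fgf21 (1.94 FPKM) 7518 and Gdf15 (1.84 FPKM) 7725, the latter pair overlapping in each group. Igfbp1 was above Angptl4 only in AF replicates 1 and 2, and the order of Fgf21 and Gdf15 varied between libraries. Beyond these pairs, the order was broken in AF replicate 2, where Igfbp1 was above Igfbp2 and Angptl8 was below Gdf15 and Fgf21. It was also broken in AF with MNA replicate 3, where Fgf21 was above Angptl8.

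**Figure D1:**
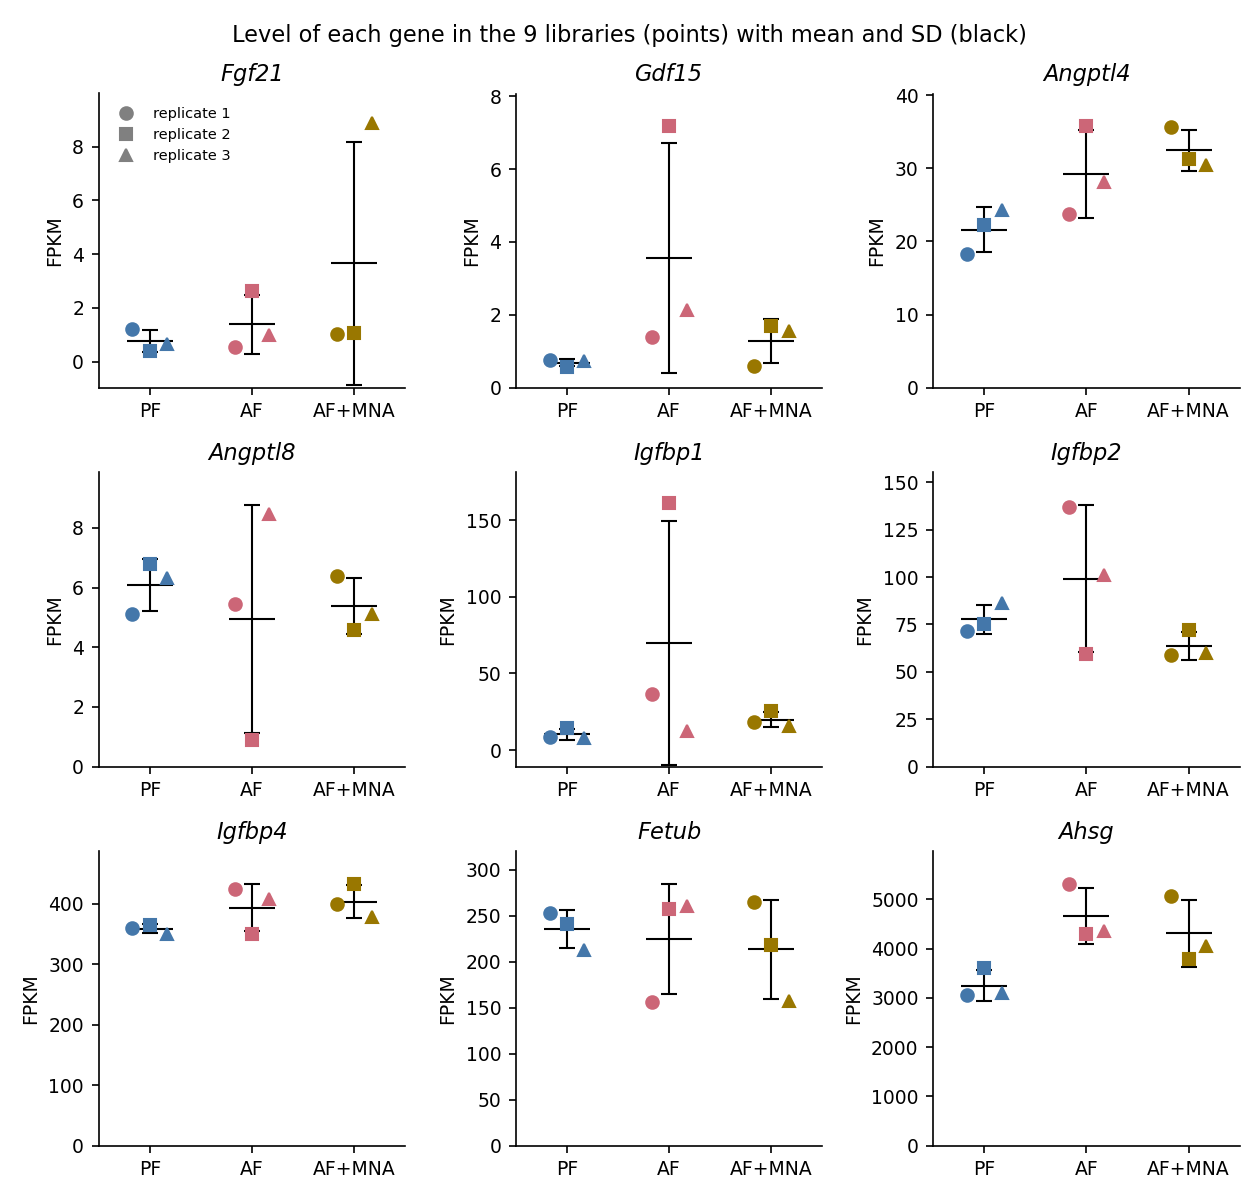
Level of each of the 9 genes in FPKM (vertical axes, linear, a scale for each gene) in the 3 PF, 3 AF and 3 AF with MNA libraries; points are libraries, marked by replicate number, and black lines are the mean and SD. AF replicate 2 (square) is highest for Gdf15 (7.18), Igfbp1 (161.03) and Angptl4 (35.76) and lowest for Angptl8 (0.90), and AF with MNA replicate 3 (triangle) is highest for Fgf21 (8.87).

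Alcohol feeding was compared with pair feeding to see which of these secreted factors differ in the alcohol-fed liver. Gdf15 was the only one of the 9 called, and it rose. Of all tested genes, 1.95% were called higher and 2.35% lower. An unadjusted p under 0.05 was reached by 2 of the 9, Gdf15 and Ahsg, against 11.7% of all tested genes, and no adjusted p was under 0.05, against 0.326% of all tested genes (lowest adjusted p among the 9 = 0.367, limma). PF and AF were separate without overlap for those same 2 genes, against 18.3% of all tested genes. The coefficient was above 0 for 7 of the 9, with a median of 0.38 beside -0.03 over all tested genes.

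AF with MNA was compared with AF to see what differs when MNA is given with alcohol. None of the 9 was called, against 1.03% of all tested genes higher and 0.95% lower. None had an unadjusted p under 0.05 (5.22% of all tested genes) or an adjusted one (0.0491%), and for none did the groups separate (10.1%). The adjusted p was at least 0.961 (limma) for each. The median coefficient was -0.07, beside 0.01 over all tested genes.

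Against PF, AF with MNA likewise had none of the 9 called, where 1.94% of all tested genes were called higher and 1.95% lower. Angptl4 and Igfbp1 had an unadjusted p under 0.05 (14.5% of all tested genes) and none an adjusted one (0.432%). For Angptl4, Igfbp1, Igfbp4 and Ahsg all AF with MNA libraries lay above all PF libraries, and groups that do not overlap in either direction were found for 21.4% of all tested genes. The median coefficient was 0.40, beside -0.02 over all tested genes.

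**Figure D2:**
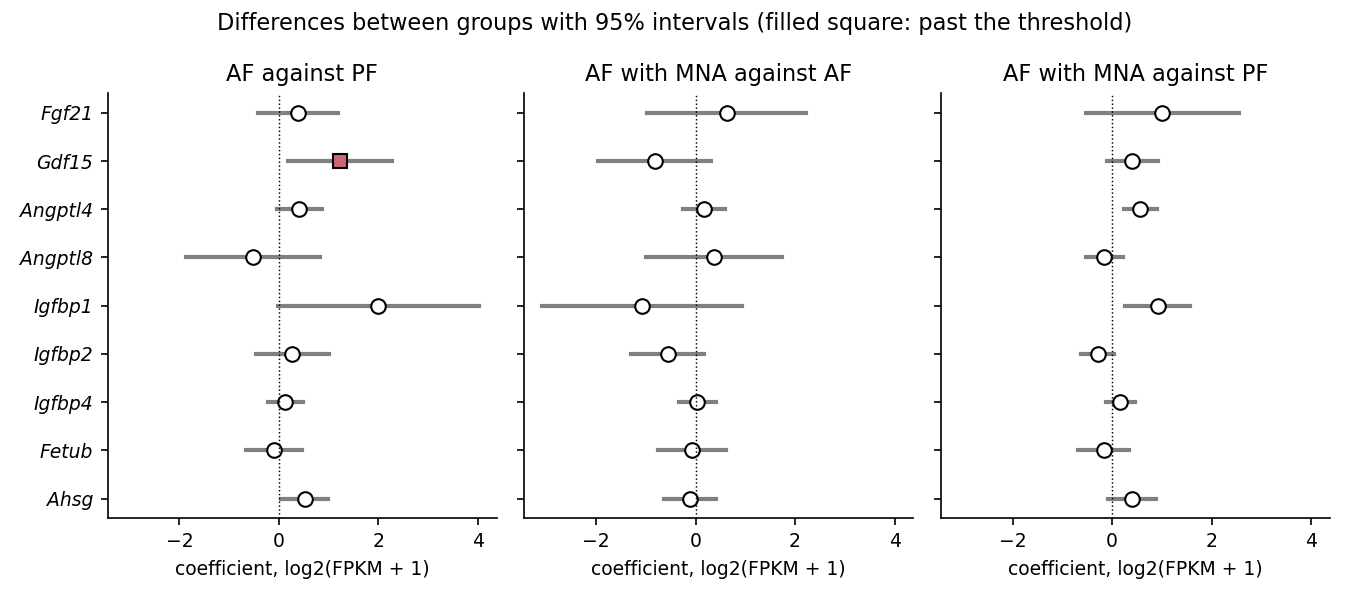
Coefficients (limma, difference of group means on log2(FPKM + 1), horizontal axes) of the 9 genes in the 3 comparisons, with 95% intervals as grey lines. Gdf15 in AF against PF (1.23) is the only filled square, which marks a gene past the threshold of the methods, and the widest intervals are those of Igfbp1 in both comparisons with AF.

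Fgf21, the fasting and stress hormone, was low in every group. It had 1.20, 0.40 and 0.66 FPKM in PF, 0.55, 2.64 and 1.01 in AF, while AF with MNA had 1.04, 1.06 and 8.87. AF replicate 2 and AF with MNA replicate 3 were high, and the other libraries of both groups lay within the PF range. The group means were 0.753 ± 0.408 FPKM in PF, 1.40 ± 1.10 in AF and 3.66 ± 4.51 in AF with MNA (SD, n = 3 libraries each). The coefficient was 0.38 for AF against PF (95% interval -0.42 to 1.19) and 1.01 for AF with MNA against PF (95% interval -0.53 to 2.54), and limma's adjusted p-values were 0.706 and 0.535. Against AF, AF with MNA had a coefficient of 0.62. Without AF with MNA replicate 3 the coefficient was -0.13 against AF and 0.25 against PF. That library held 8.45 times the mean of the other two of its group. Without AF replicate 2 the mean AF level was 1.04 times that of PF. Coverage estimated from the FPKM was between 2.70 reads per base in PF replicate 2 and 51.8 in AF with MNA replicate 3, so that differences among the low libraries rest on few reads.

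Of 6 listed genes for the FGF21 receptors and the protease that cleaves FGF21, 4 were tested, and 0 were called in each of the 3 comparisons, or 1 in AF with MNA against PF without PF replicate 2. Klb, the co-receptor, had mean levels of 5.55 FPKM in PF, 5.51 in AF and 4.48 in AF with MNA. The lowest p in AF against PF was that of the receptor Fgfr3 (2.96 FPKM in PF and 1.84 in AF, unadjusted p = 0.0774, limma), which also had the lowest p in AF with MNA against PF (1.62 FPKM in AF with MNA, unadjusted p = 0.0116, adjusted p = 0.232, limma). Between AF with MNA and AF it was that of Fgfr1, with 0.76 and 0.51 FPKM (unadjusted p = 0.063, limma).

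Gdf15, a stress-induced cytokine of the TGF-beta superfamily, rose in AF. It had 0.76, 0.57 and 0.72 FPKM in PF, against 1.39, 7.18 and 2.12 in AF. Every AF library lay above every PF library, and AF replicate 2 was far above the other AF libraries, at 4.09 times their mean. The means were 0.683 ± 0.10 and 3.56 ± 3.15 FPKM (SD, n = 3 libraries each), a 5.21-fold difference with a coefficient of 1.23 (SE 0.44, 95% interval 0.18 to 2.27, adjusted p = 0.367 by limma). With AF replicate 2 left out it was still called, with a 2.57-fold difference, a coefficient of 0.70 (SE 0.16) and an adjusted p of 0.23 from limma. Without PF replicate 1, 2 or 3 the unadjusted p was 0.0574, 0.0686 and 0.0573 (limma) and the call was lost, with coefficients from 1.18 to 1.26.

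Given MNA, alcohol-fed mice had Gdf15 at 0.60, 1.69 and 1.56 FPKM. Replicate 1 was within the PF range, and replicates 2 and 3 were within the AF range. The mean of 1.28 ± 0.595 FPKM (SD, n = 3) was 0.360 times that of AF (coefficient -0.82, SE 0.47, adjusted p at least 0.961 by limma) and 1.88 times that of PF (coefficient 0.40, SE 0.21, adjusted p = 0.46 by limma). Without AF replicate 2 the coefficient against AF was -0.30, and the mean was 0.731 times that of AF. Against PF the gene passed the threshold only without AF with MNA replicate 1 (coefficient 0.64, unadjusted p = 0.00175, limma). Against AF it passed without AF replicate 1 (coefficient -1.18, unadjusted p = 0.0474, limma).

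Fgf21 and Gdf15 are both known targets of the integrated stress response, the programme run by the transcription factors ATF4 and CHOP (Ddit3). Of 18 listed genes of that response 12 were tested in AF against PF and 0 were called (1 without PF replicate 1 or with no filter on low values), with a median coefficient of 0.20 beside -0.03 over all tested genes. Atf4 itself had 16.3 FPKM in PF and 22.8 in AF (unadjusted p = 0.524, limma). The lowest p was that of Sesn2, a stress-induced inhibitor of mTORC1, with 2.50, 2.07 and 2.31 FPKM in PF, against 3.87, 4.07 and 4.44 in AF (adjusted p = 0.114, limma). Its groups did not overlap, and its log2 ratio of 0.85 was below the threshold. Between AF with MNA and AF, 1 of 12 fell, against 0.95% of all tested genes. This was Chac1, which degrades glutathione, with 2.90, 2.50 and 1.33 FPKM in AF, against 0.04, 1.39 and 0.23 in AF with MNA (unadjusted p = 0.0168, adjusted p = 0.94, limma). The number called was 0 with a minimum of 2 FPKM or without AF replicate 1, AF replicate 2, AF with MNA replicate 1 or AF with MNA replicate 3, and 2 with no filter on low values. Compared with PF, AF with MNA had 1 of 11 lower, against 1.95% of all tested genes. This was the transcription factor Atf5, from 33.0 to 16.5 FPKM (adjusted p = 0.221, limma). The number called was 0 without PF replicate 1 or AF with MNA replicate 1, and 2 with no filter on low values. It was also 0 with the libraries scaled to the same median or with the coefficient in place of the log2 ratio.

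Angptl4, the fasting-induced inhibitor of lipoprotein lipase, had 18.27, 22.31 and 24.30 FPKM in PF, 23.80, 35.76 and 28.18 in AF, while AF with MNA had 35.65, 31.27 and 30.48. All AF with MNA libraries lay above all PF libraries, while AF replicate 1 was within the PF range. The means were 21.6 ± 3.07, 29.2 ± 6.05 and 32.5 ± 2.79 FPKM (SD, n = 3 libraries each). AF with MNA was 1.50 times PF, with a coefficient of 0.57 (SE 0.14, 95% interval 0.23 to 0.91), an unadjusted p of 0.00584 and an adjusted p of 0.182 from limma. That unadjusted p stayed between 0.0041 and 0.0253 under the alternatives. The log2 ratio of 0.59 did not reach 1, so the gene was not called. In AF against PF the coefficient was 0.41 (SE 0.19, adjusted p = 0.473 by limma), and 0.26 without AF replicate 2.

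Angptl8, the feeding-induced inhibitor, had 5.11, 6.79 and 6.33 FPKM in PF, 5.45, 0.90 and 8.48 in AF, while AF with MNA had 6.40, 4.57 and 5.13. AF replicate 2 held 0.129 times the mean of the other AF libraries and was the lowest of all 9, and AF replicate 3 was the highest. The means were 6.08 ± 0.868, 4.94 ± 3.82 and 5.37 ± 0.938 FPKM (SD, n = 3 libraries each). The AF against PF coefficient was -0.53 (95% interval -1.88 to 0.82, adjusted p = 0.763 by limma), and it turned to 0.15 without AF replicate 2. AF with MNA against AF likewise turned from 0.37 to -0.31. In AF replicate 2 the inhibitor of the fasted state was thus at its highest level of the AF group and that of the fed state at its lowest.

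Other genes that control lipoprotein lipase were not called in any of the 3 comparisons, with 0 of 9 tested genes each time and 12 listed. Without PF replicate 3, 1 was called in AF against PF and 2 in AF with MNA against PF, and without AF with MNA replicate 3, 1 was called in each comparison of AF with MNA. Lpl itself had mean levels of 1.12 FPKM in PF, 1.27 in AF and 0.95 in AF with MNA. In AF against PF the lowest p was that of Angptl6 (4.53 and 2.85 FPKM, unadjusted p = 0.0357, adjusted p = 0.39, limma). Between AF with MNA and AF it was that of Apoc3, an inhibitor of lipase carried on lipoproteins (289 and 527 FPKM, unadjusted p = 0.0631, limma). Against PF it was that of Lipc, hepatic lipase, with 3.88, 3.51 and 4.21 FPKM in PF, against 5.49, 5.78 and 6.40 in AF with MNA (unadjusted p = 0.00267, adjusted p = 0.146, limma). Those groups did not overlap, and the log2 ratio was 0.61.

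Igfbp1 varied most, by 4.17 between its lowest and highest library on log2(FPKM + 1). It had 8.27, 14.58 and 7.99 FPKM in PF, 36.62, 161.03 and 12.58 in AF, while AF with MNA had 18.46, 25.50 and 15.94. AF replicate 2 was high, at 6.55 times the mean of the other AF libraries, and AF replicate 3 was within the PF range. The AF mean of 70.1 ± 79.7 FPKM was 6.82 times the PF mean of 10.3 ± 3.73 FPKM (SD, n = 3 libraries each). The coefficient was 2.00 (SE 0.84, 95% interval -0.02 to 4.02, unadjusted p = 0.052, adjusted p = 0.431, limma), and the gene was not called. Without AF replicate 2 the difference was 2.39-fold (coefficient 1.05, unadjusted p = 0.0823, limma). Without AF replicate 3 the gene passed the threshold with a coefficient of 2.84 (unadjusted p = 0.00601, limma).

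All AF with MNA libraries lay above all PF libraries for Igfbp1. Their mean of 20.0 ± 4.95 FPKM (SD, n = 3) was 1.94 times that of PF (coefficient 0.92, SE 0.27, 95% interval 0.26 to 1.57, unadjusted p = 0.0141, adjusted p = 0.248, limma). The log2 ratio of 0.96 was just under the threshold, and it was passed without PF replicate 2 and without AF with MNA replicate 1 or 3. With all 9 libraries in the fit, where the spread of AF counts too, the unadjusted p was 0.256 (limma). Against AF, the mean was 0.285 times as high (coefficient -1.08, 95% interval -3.09 to 0.93, unadjusted p = 0.24, limma). Leaving out AF replicate 2, it was 0.812 times as high, with a coefficient of -0.13, and without AF replicate 3 the coefficient was -1.92 (unadjusted p = 0.0262, limma) and past the threshold.

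Igfbp2, whose product carries both IGFs in blood, had 71.70, 75.02 and 86.40 FPKM in PF, 136.86, 59.37 and 101.19 in AF, while AF with MNA had 59.02, 72.19 and 59.76. AF replicates 1 and 3 were above all libraries of the other groups, and AF replicate 2, at 0.499 times their mean, was within the range of AF with MNA. The means were 77.7 ± 7.71, 99.1 ± 38.8 and 63.7 ± 7.40 FPKM (SD, n = 3 libraries each). The coefficient was 0.27 for AF against PF (SE 0.30, adjusted p = 0.775 by limma) and -0.56 for AF with MNA against AF (SE 0.30, adjusted p at least 0.961 by limma). Without AF replicate 2 these were 0.60 (unadjusted p = 0.0215, limma) and -0.88 (unadjusted p = 0.00491, adjusted p = 0.634, limma). With AF replicate 1 left out they were 0.0015 (unadjusted p = 0.996, limma) and -0.29 (unadjusted p = 0.325, limma). After the omission of AF replicate 2 the log2 ratios of 0.62 and -0.90 did not reach the threshold.

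Igfbp4 was the steadiest gene of the 9, with a span of 0.30 on log2(FPKM + 1) over all libraries. It had 359.94, 364.87 and 350.41 FPKM in PF, 423.23, 349.40 and 406.96 in AF, while AF with MNA had 399.41, 431.82 and 377.16. AF with MNA lay above PF in all libraries, by 1.12-fold (coefficient 0.17, SE 0.12, unadjusted p = 0.224, limma). AF replicate 2 was again the low library of its group. The coefficient of AF against PF was 0.13 (95% interval -0.23 to 0.48, unadjusted p = 0.417, limma).

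The IGF binding proteins thus kept no common order across the AF libraries. Igfbp1 was highest and both Igfbp2 and Igfbp4 lowest in AF replicate 2. Of the wider IGF axis, 8 of 14 listed genes were tested in AF against PF, and 2 fell. Of all tested genes 2.35% were called lower there. Ghr, the growth hormone receptor, had 17.38, 13.98 and 12.43 FPKM in PF, against 5.73, 4.47 and 11.21 in AF (log2 ratio -1.03, unadjusted p = 0.0147, adjusted p = 0.31, limma). Igfbp5, the neighbour of Igfbp2, had 1.25, 2.68 and 1.34 FPKM in PF, against 0.53, 1.05 and 0.88 in AF (log2 ratio -1.10, unadjusted p = 0.0418, adjusted p = 0.404, limma). In both, all AF libraries lay below all PF libraries. The count of 2 was 1 without AF replicate 2 or 3 or PF replicate 1 or 2, and 0 without AF replicate 1. It was also 1 with the libraries scaled to the same median, no filter on low values, a minimum of 2 FPKM, or the coefficient in place of the log2 ratio.

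Igf1, the liver's circulating growth factor, had mean levels of 36.6 FPKM in PF, 35.8 in AF and 29.8 in AF with MNA and was not called. Igfbp3, next to Igfbp1 and its product the main carrier of IGF1 in blood, had 4.05, 4.04 and 3.16 FPKM, while Igfbp1 ranged as above. Of the axis, 0 of 8 genes were called in AF with MNA against AF, where Igfbp5 had the lowest p (0.82 and 1.15 FPKM, unadjusted p = 0.125, limma). Against PF 0 of 7 were called (1 without AF with MNA replicate 2), with Ghr lowest in p (14.6 and 8.05 FPKM, unadjusted p = 0.00917, adjusted p = 0.216, limma). The median coefficient of the list was 0.03, -0.01 and -0.29 in AF against PF, AF with MNA against AF and AF with MNA against PF. Over all tested genes it was -0.03, 0.01 and -0.02.

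Ahsg, which encodes fetuin-A, an inhibitor of calcium phosphate precipitation that also inhibits the insulin receptor, had 3055.48, 3604.23 and 3090.06 FPKM in PF. It had 5307.56, 4286.70 and 4365.56 FPKM in AF, followed by 5076.58, 3794.12 and 4059.64 in AF with MNA. Every library on the alcohol diet, with or without MNA, lay above every PF library. The means were 3250 ± 307, 4653 ± 568 and 4310 ± 677 FPKM (SD, n = 3 libraries each). AF was 1.43 times PF (coefficient 0.51, SE 0.20, 95% interval 0.04 to 0.99, unadjusted p = 0.0383, adjusted p = 0.395, limma), short of the log2 ratio of 1. With AF replicate 2 left out it was 1.49 times PF. The unadjusted p passed 0.05 under several alternatives and was highest, at 0.282, with no filter on low values. AF with MNA was 1.33 times PF (coefficient 0.40, SE 0.20, unadjusted p = 0.0877, limma) and 0.926 times AF.

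Fetub, the fetuin-B gene and the neighbour of Ahsg, had 253.01, 240.86 and 213.24 FPKM in PF, 155.99, 257.89 and 260.44 in AF, while AF with MNA had 265.00, 218.26 and 157.83. The groups overlapped, with AF replicate 1 and AF with MNA replicate 3 low. The means were 236 ± 20.4, 225 ± 59.6 and 214 ± 53.7 FPKM (SD, n = 3 libraries each), and the coefficients of -0.10, -0.07 and -0.17 in AF against PF, AF with MNA against AF and AF with MNA against PF were each smaller than their SE. AF replicate 1 was the highest AF library for Ahsg and the lowest for Fetub, while AF with MNA replicate 1 was the highest of its group for both.

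In the circRNA table Ahsg was the only one of the 9 with an entry. This circRNA joins 4 exons (chr16:22894325-22896609, plus strand) and had 2, 0 and 0 junction reads in PF, 1, 0 and 0 in AF, while AF with MNA had 6, 0 and 0, too few for a comparison. The reads came from replicate 1 of each group. No transcript of the lncRNA table overlapped a member gene.

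Among the secreted proteins of the cystatin superfamily, which include the fetuins, 0 of 6 were called in any comparison. In AF against PF Ahsg had the lowest p of them, and in the other comparisons it was Hrg, the histidine-rich glycoprotein gene, with 193.78, 206.06 and 200.35 FPKM in PF, 232.10, 251.10 and 248.13 in AF, while AF with MNA had 305.37, 430.15 and 285.10. The 3 groups did not overlap with each other. The unadjusted p was 0.0537 for AF with MNA against AF and 0.00649 against PF (adjusted p = 0.94 and 0.189, limma).

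A list of 24 other hepatokines was read beside the 9 genes. In AF against PF 4 of 18 tested genes rose and 0 fell (1.95% and 2.35% of all tested genes). The median coefficient was 0.26, beside -0.03 over all tested genes. Fst, which encodes the activin-binding protein follistatin, had 0.52, 0.38 and 0.24 FPKM in PF, against 2.05, 1.13 and 1.27 in AF (log2 ratio 1.96, adjusted p = 0.147, limma). Serpinb1a, a protease inhibitor, went from 0.273 to 0.870 FPKM (adjusted p = 0.272, limma), and Selenop, the selenium carrier of plasma, from 595 to 1242 FPKM (adjusted p = 0.381, limma). Hamp, encoding hepcidin, was the other one, and its reads can be shared with its paralog Hamp2. For Selenop, AF replicate 3, with 660.96 FPKM, was close to the PF libraries, which had 571.19 to 607.75 FPKM. The count of 4 was 1 with the coefficient in place of the log2 ratio, and 2 with a minimum of 2 FPKM or without AF replicate 1 or 2 or PF replicate 2.

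Against PF, AF with MNA had 3 of 19 other hepatokines higher and 0 lower (1.94% and 1.95% of all tested genes). They were Serpinb1a, Fst and Selenop, with 1.41, 0.83 and 1282 FPKM and adjusted p-values of 0.157, 0.323 and 0.335 from limma. That count was 0 with the coefficient in place of the log2 ratio, and 1 with a minimum of 2 FPKM, with all 9 libraries fitted together, or without PF replicate 2, AF with MNA replicate 1 or AF with MNA replicate 2. The comparison of AF with MNA against AF had 0 of 19 called (1 without AF with MNA replicate 1), with Tsku, the tsukushi gene, lowest in p (9.23 and 14.7 FPKM, unadjusted p = 0.0169, adjusted p = 0.94, limma).

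Fgf21 and Angptl4 are textbook targets of PPARA, the nuclear receptor that turns on fatty acid oxidation in fasting, and neither was called. In AF with MNA against PF 6 of 17 tested genes of the list of PPARA and fasting genes rose and 0 fell. Of all tested genes, 1.94% were called higher and 1.95% lower. The median coefficient was 0.53, beside -0.02 over all tested genes. Acot1, an acyl-CoA thioesterase, had 3.12, 5.07 and 4.82 FPKM in PF, against 20.00, 24.00 and 26.58 in AF with MNA (adjusted p = 0.0171, limma). Cyp4a14, a fatty acid hydroxylase, had 62.59, 45.73 and 28.93 FPKM in PF, against 233.31, 232.63 and 324.17 in AF with MNA (adjusted p = 0.0395, limma). Pdk4, which shuts down pyruvate dehydrogenase, went from 0.303 to 6.87 FPKM (adjusted p = 0.073, limma). The fatty acid transporter Cd36, the peroxisomal enzyme gene Ehhadh and Cyp4a10 were the others. The count was 6 or 7 with any library left out. Acot1 and Acot2, and Cyp4a14 and Cyp4a10, are similar enough for reads to be shared between them.

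In AF against PF, 2 of 17 PPARA and fasting genes rose and 1 fell (1.95% and 2.35% of all tested genes). The median coefficient was 0.05, beside -0.03 over all tested genes. Cyp4a14 had 97.42, 234.09 and 195.35 FPKM in AF (log2 ratio 1.94, adjusted p = 0.155, limma). Plin5, a lipid droplet coat protein gene, went from 5.62 to 11.3 FPKM (adjusted p = 0.395, limma), and the fatty acid binding protein gene Fabp1 fell from 77.1 to 34.9 FPKM (adjusted p = 0.373, limma). The count of 3 was 6 without AF replicate 1. In AF replicate 2, where Fgf21, Gdf15, Angptl4 and Igfbp1 were at their highest in AF, Pdk4 had 23.97 FPKM, against 0.76 and 1.67 in the other AF libraries, and Ehhadh 90.99 FPKM, against 6.41 and 11.55.

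Between AF with MNA and AF, 1 of 17 PPARA and fasting genes rose, Acot1, from 2.93, 16.95 and 9.02 FPKM in AF (unadjusted p = 0.0289, adjusted p = 0.94, limma). The median coefficient was 0.47, beside 0.01 over all tested genes, of which 1.03% were called higher. Without AF replicate 2 there were 4 calls, with all 9 libraries fitted together or without AF with MNA replicate 1 there were 2, and without AF replicate 1, or without AF with MNA replicate 2 or 3, there were 0. Beside these, Angptl4 had 1.11 times its AF level and was not called, and the coefficient of Fgf21 (0.62, not called) turned to -0.13 without AF with MNA replicate 3.

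Genes of the insulin and FOXO1 response, the programme to which Igfbp1 belongs, were not called in any comparison (0 of 15 tested, 16 listed, each time). With a library left out, 2 were called in AF against PF without PF replicate 2 and 1 without AF replicate 3, and 1 in each comparison of AF with MNA without AF with MNA replicate 1. Their median coefficient was -0.01 in AF against PF, -0.28 in AF with MNA against AF and -0.09 in AF with MNA against PF. Over all tested genes it was -0.03, 0.01 and -0.02 in the same order. The lowest p was that of Sesn3, a sestrin and a FOXO target, in both comparisons with PF, with 3.42, 3.72 and 4.20 FPKM in PF, 2.97, 1.95 and 2.95 in AF (adjusted p = 0.399, limma) and 2.16, 1.94 and 2.20 in AF with MNA (adjusted p = 0.0939, limma). All its libraries on the alcohol diet lay below all PF libraries. Between AF with MNA and AF it was that of Foxo3, with 6.64 and 4.78 FPKM (unadjusted p = 0.0593, limma).

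**Figure D3:**
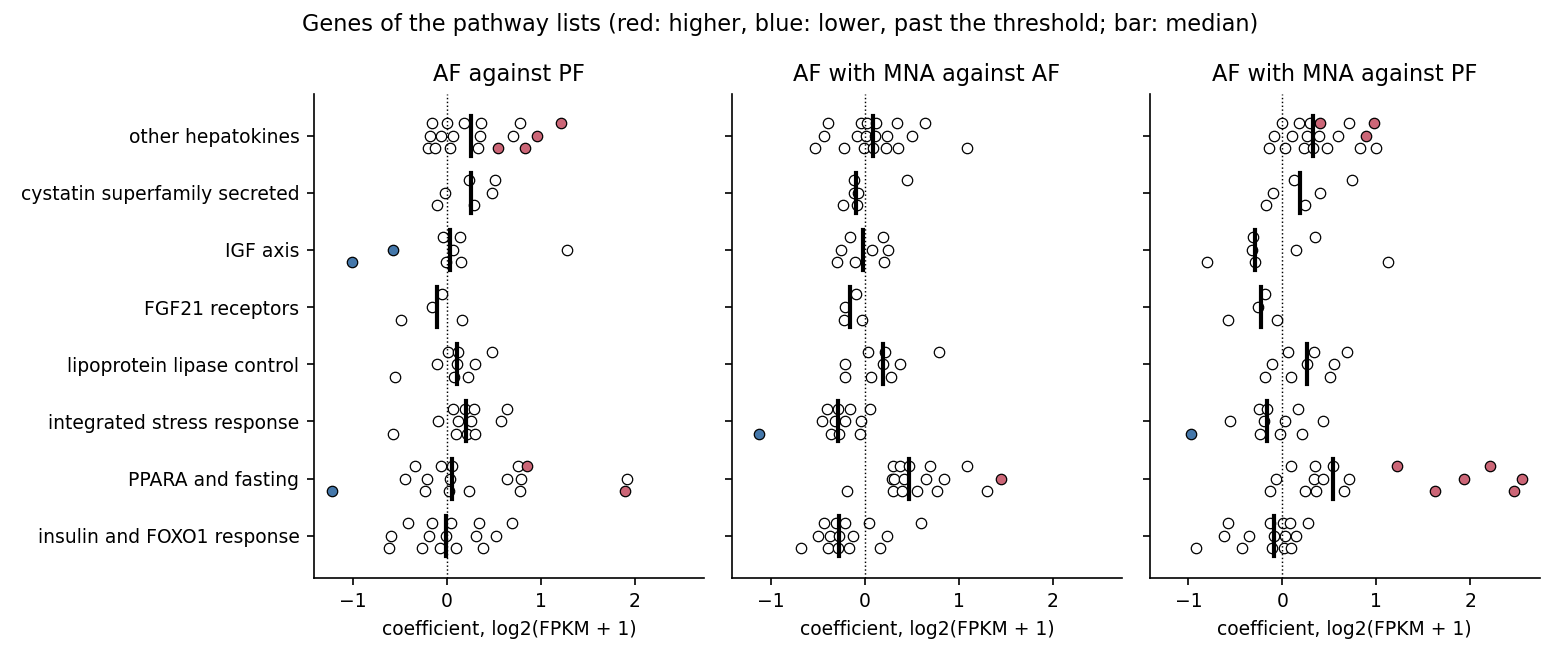
Coefficients (limma, log2(FPKM + 1), horizontal axes) of the tested genes of the 8 pathway lists in the 3 comparisons; each circle is a gene, filled red where called higher and blue where called lower, and the bar is the list's median. The 6 red circles of the PPARA and fasting list in AF with MNA against PF and the 4 of the other hepatokines in AF against PF are the longest runs of calls.

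The pattern over the 9 libraries was compared with that of all 12251 other named genes whose mean reached 0.5 FPKM, for the members that spanned more than 1 on log2(FPKM + 1). The measure of likeness was the root mean square difference of log2(FPKM + 1) after centring each gene. Nearest to Igfbp1 was Hmox1, the inducible heme oxygenase gene, at 0.42, where the variation of Igfbp1 about its own mean was 1.21. Hmox1 had 6.51, 6.48 and 4.80 FPKM in PF, 15.84, 159.91 and 10.47 in AF, while AF with MNA had 19.79, 18.12 and 8.46. Both genes were highest in AF replicate 2 by a wide margin. Fam134b, an endoplasmic reticulum membrane protein gene, came next at 0.58.

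Nearest to Gdf15 were the transcription factor gene Klf6, at 0.23, and Gm26809, at 0.26, where the variation of Gdf15 itself was 0.70. Klf6 had 2.24, 1.95 and 2.27 FPKM in PF, 3.47, 9.23 and 3.63 in AF, while AF with MNA had 2.26, 2.75 and 3.07, and as for Gdf15 all AF libraries lay above all PF libraries. Nearest to Angptl8, whose own variation was 0.63, were Gm42577 at 0.16 and Hmgn1 at 0.19, all low in AF replicate 2. Nearest to Fgf21, with its own variation of 0.82, were Gm27539 at 0.37 and Rps2-ps10 at 0.40, all high in AF with MNA replicate 3. Nearest to Igfbp2 were Sri, at 0.17, and Cdh1, at 0.18, where its own variation was 0.38. A likeness over 9 libraries in which 1 library departs from the rest rests largely on that library.

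**Figure D4:**
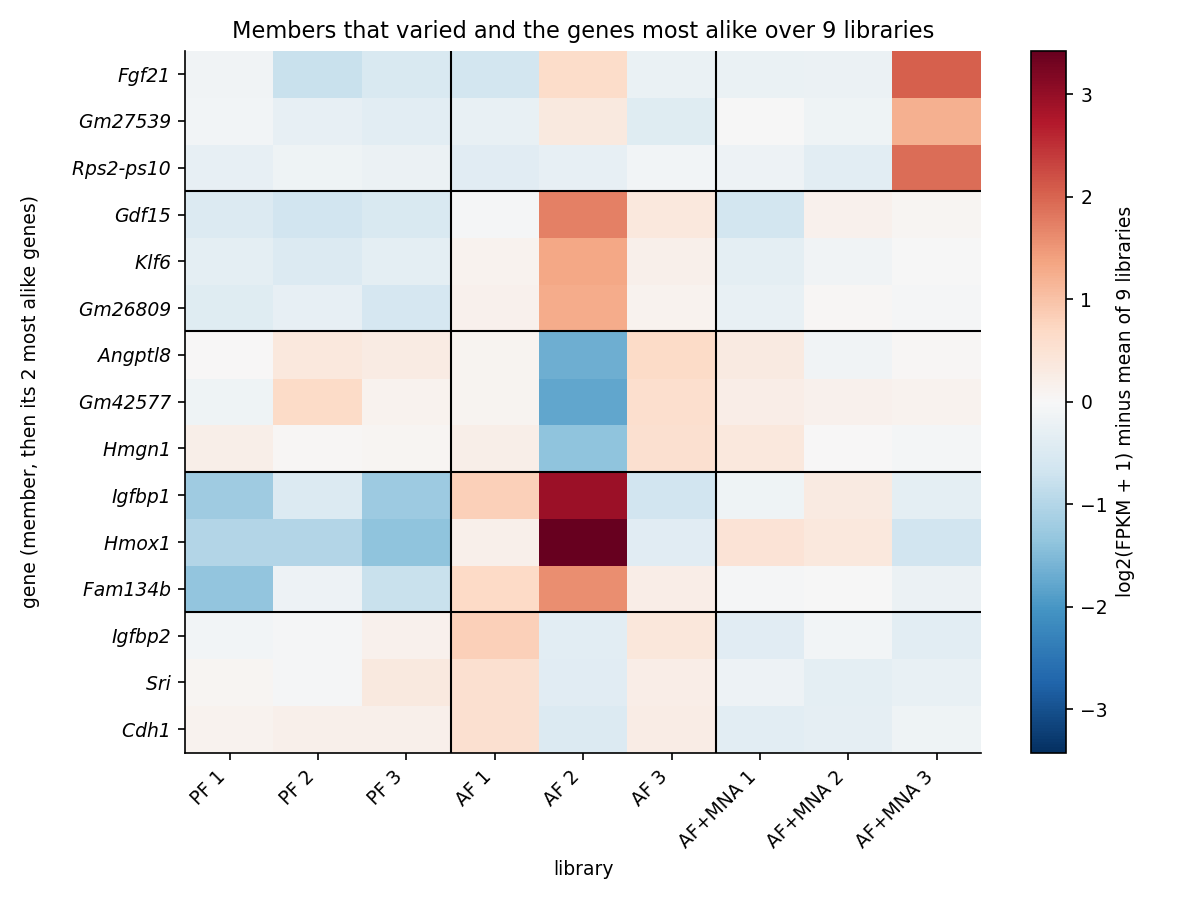
Members that spanned more than 1 on log2(FPKM + 1), each followed by its 2 most alike genes (rows), in the 9 libraries (columns); colour is log2(FPKM + 1) minus the gene's mean over the 9 libraries. Igfbp1 and Hmox1 share a dark red cell in AF replicate 2 (161.03 and 159.91 FPKM), and Angptl8 and its 2 alike genes a blue one.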

How the data were processed

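Liver RNA of 3 PF, 3 AF and 3 AF with MNA libraries was depleted of ribosomal RNA and sequenced from both ends with strand-specific kits. The authors deposited gene levels in FPKM, which the methods assign to StringTie (version 1.3.4 in the submitters' processing notes, which also name HISAT2 and cutadapt 1.9), rounded to 2 decimals. They also deposited the coverage of lncRNA transcripts, a signal used here for depth, and circRNA values as counts of junction reads. The genome build is not named in the sources used here. Of 7879 known lncRNA transcripts in the files, 7841 were found by identifier in GENCODE M21 (GRCm38), 7708 with the same coordinates.

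Groups and replicate numbers came from the labels. As nothing says more of the replicates than that each is a library, p-values measure the spread between these libraries. Named genes whose mean over the libraries of a comparison reached 0.5 FPKM (12268, 12214 and 12276 genes in AF against PF, AF with MNA against AF and AF with MNA against PF) were fitted with limma 3.58.1 in R 4.3.3 on log2(FPKM + 1), with an intensity trend and Benjamini-Hochberg adjustment. All tests were two-sided, and the fit was tested on simulated data. The members, the pathway lists and the marker lists were chosen with earlier results of these data known. From each list and comparison, up to 3 called genes of lowest p are named with values, or the gene of lowest p where none was called. Further genes named with values (Klb, Atf4, Lpl, Igf1, Igfbp3, and Pdk4 and Ehhadh in AF) were picked from the lists after their values were seen. Alternatives were a pseudocount of 0.1, libraries scaled to the same median, no filter, a minimum of 2 FPKM, the replicate number as a block, all 9 libraries fitted together, no intensity trend, each library left out, and the coefficient in place of the log2 ratio.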

Additional observations from a re-analysis of the deposited data

How the results depend on the processing

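The number of the 9 genes called in AF against PF was 1 in the fit as reported. It was 2 with all 9 libraries in the fit, where Igfbp1 joined Gdf15, and between 0 (without any 1 of the PF replicates) and 2 (without AF replicate 3) with a library left out. In AF with MNA against AF it was 0, and between 0 and 1 with a library left out (1 without AF replicate 1 or 3). In AF with MNA against PF it was 0, and between 0 and 2 with a library left out (2 without AF with MNA replicate 1, 1 without PF replicate 2 or AF with MNA replicate 3). The number with an adjusted p under 0.05 was 0 under every alternative in all 3 comparisons. With the replicate number as a replicate block, 2 genes were called in AF against PF (Gdf15 and Igfbp1, unadjusted p = 0.0327 and 0.0166, limma) and 1 in AF with MNA against AF (Gdf15, unadjusted p = 0.0414, limma). In the latter comparison the block also moved the PPARA and fasting genes called from 1 to 2. Same-numbered libraries had correlations of their deviations from the group mean between -0.0802 and 0.0615. Libraries of different groups and numbers had between -0.123 and 0.0972. Same-numbered libraries were thus no more alike on this measure, but a weak pairing could not be seen this way. Where an alternative is a fit with fewer libraries, a lost call has fewer degrees of freedom behind it, and the cause of the other changes was not tested.

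Coefficients changed sign only with a library left out. In AF against PF they ranged from -1.01 to 0.15 for Angptl8 and from -0.23 to 0.14 for Fetub. In AF with MNA against AF the ranges were -0.13 to 1.01 for Fgf21, -0.31 to 0.85 for Angptl8, -0.045 to 0.093 for Igfbp4 and -0.31 to 0.14 for Fetub. In AF with MNA against PF that of Fetub was -0.34 to 0.033. With a minimum of 2 FPKM, Fgf21 dropped out of AF against PF and Gdf15 out of AF with MNA against PF. Low levels limit Fgf21 and Gdf15, whose values in PF stood for few reads per base.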
